A study of Mus musculus with 3 samples.

Results

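Leukocytes of tumors whose cancer cells lacked p38a were compared, gene by gene and cell class by cell class, with leukocytes of tumors whose cancer cells carried it. 4T1 is a mouse mammary carcinoma line that grows and metastasizes in immunocompetent BALB/c mice and draws large numbers of neutrophils and monocytes into the tumor. In each group 200000 cells were injected into mammary fat pad 4 of female BALB/c mice aged 6 to 8 weeks, and tumors were taken on day 14. The vehicle group received 4T1-luc cells wild type for p38a and, from day 4, DPBS by gavage for 10 days. The p38KO group received 4T1-luc cells in which p38a had been inactivated with CRISPR-Cas9 (p38a-KO-H9, 1 clone). Its treatment label is NA, so that the gavage, the clone and the knockout cannot be told apart. The p38i group, wild type cells and LY2228820 at 30 mg/kg per day for the same 10 days, is given only beside the comparison, and it shares the vehicle library with it. Each group is 1 library of live CD45+ cells pooled from 3 tumors, so no test between groups was possible and no p-value is given. The comparison holds 7679 of the 12472 cells kept in the series, 3820 of vehicle and 3859 of p38KO, and 32285 genes.

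p38a, encoded by Mapk14, is a stress-activated kinase. It phosphorylates MK2 and MSK kinases, and through them it acts on the stability of cytokine mRNAs and on the transcription of immediate-early genes such as Fos and of Dusp1, whose phosphatase product switches p38 off again. Here the kinase was removed from the cancer cells only, so the sorted leukocytes kept their own Mapk14 and their level of it does not check the labels. Mapk14 (chromosome 17, 28691329 to 28748406, GRCm38) was at 27.4 CPM (UMIs of a gene per 1000000 UMIs of a class) in vehicle neutrophils and 32.9 CPM in p38KO neutrophils. Its log2 ratio of p38KO to vehicle lay between -0.51 in NK cells and 0.37 in monocytes, and it was called in none of the 6 classes.

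The libraries held 21675352 UMIs in 4588 barcodes (vehicle), 25996832 in 6343 (p38i) and 25997636 in 5212 (p38KO). The median kept cell had 3162, 3038 and 3317 UMIs, and mitochondrial transcripts made up a median of 0.671%, 0.968% and 2.10% of its UMIs. The vehicle and p38KO libraries shared 5 barcodes. Cells were assigned to classes by UMIs of 8 genes: Csf3r and Cxcr2 for neutrophils, Ly6c2 and Fn1 for monocytes, C1qa for macrophages, Cd3e for T cells, Ncr1 for NK cells and Flt3 for dendritic cells. Every class passed the check on its other markers in each library, with 7 to 10 markers present. Because the classes were cut on transcripts, levels within a class also move with which cells enter it.

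Macrophages took a larger share of the p38KO library and neutrophils a smaller one. Of the kept cells, 142 were macrophages in vehicle (3.72%, exact 95% interval 3.14 to 4.37) and 450 in p38KO (11.7%, 10.7 to 12.7), a difference of 7.94 percentage points (6.77 to 9.13). Neutrophils, the short-lived granulocytes that dominate this tumor, numbered 2030 (53.1%) and 1765 (45.7%), a difference of -7.40 points (-9.63 to -5.17). Dendritic cells were scarce in both libraries, with 37 cells (0.969%) in vehicle and 75 (1.94%) in p38KO. Monocytes numbered 447 (11.7%) and 378 (9.80%), a difference of -1.91 points. Its direction turned when every cell was thinned to 1500 UMIs before gating, with 8.66% in vehicle and 9.38% in p38KO. T cells (539 and 519 cells) and NK cells (116 and 133) differed by -0.661 and 0.410 points, with intervals that include 0. All these intervals, and those that follow, cover counting error only.

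**Figure D1:**
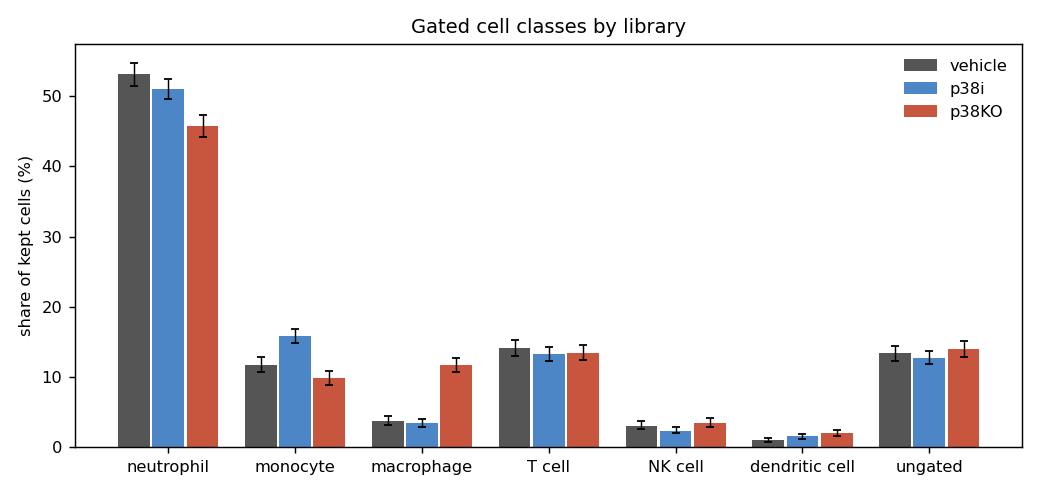
Share of kept cells (%) in each gated class and outside the gates, for the vehicle, p38i and p38KO libraries. Bars are 1 library each and whiskers are exact 95% binomial intervals. The macrophage bar stands at 3.72% in vehicle and 11.7% in p38KO, and the neutrophil bar at 53.1% and 45.7%.

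For each class the UMIs of all its cells were summed and genes with at least 50 UMIs over both libraries were ranked by their CPM ratio. A gene was called higher or lower when it differed at least 2-fold. By this rule 200 of 6998 genes were higher in p38KO neutrophils (2.86%) and 37 lower (0.529%). In monocytes 128 of 8043 were higher (1.59%) and 66 lower (0.821%). In macrophages 255 of 9149 were higher (2.79%) and 66 lower (0.721%). T cells had 118 of 8240 higher (1.43%) and 72 lower (0.874%), and NK cells 79 of 4625 higher (1.71%) and 99 lower (2.14%). In dendritic cells 119 of 4220 were higher (2.82%) and 48 lower (1.14%). The median log2 ratio of all these genes lay between -0.03 in NK cells and 0.12 in neutrophils.

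Part of the calls rested on very few cells. Among genes called higher, 27 in neutrophils, 33 in monocytes, 22 in macrophages, 21 in T cells, 20 in NK cells and 19 in dendritic cells had at least 0.5 of their UMIs in 3 cells or fewer. Among genes called lower, the same held in vehicle for 4 of 37 in neutrophils, 23 of 66 in monocytes and 16 of 66 in macrophages. It also held for 16 of 72 in T cells, 10 of 99 in NK cells and 19 of 48 in dendritic cells. The extreme case was Krt14, a basal keratin, whose 516 UMIs in p38KO neutrophils all came from 1 cell. Igha and Jchain, the IgA heavy chain and the joining chain made by plasma cells, had 2487 and 971 UMIs in 1 cell of the p38KO monocyte class. Igkc, the kappa light chain, was called higher there too (82.1, 753 and 2452 CPM in vehicle, p38i and p38KO), and 7786 of its 7886 p38KO UMIs came from 1 cell, without which it was lower in p38KO. Wfdc2, an epithelial secreted protein, was called on 6 cells of that class.

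Of the 9 genes called higher in 4 classes, the highest number reached, 7 were genes of mast cells, which store proteases in granules, and the others were Ccl8 and Cd63. Cpa3, Mcpt1, Mcpt2, Mcpt4, Cma1, Tpsb2 and Tpsab1 encode such proteases. Over these 7 genes together, 99 kept p38KO cells (2.57%, 2.09 to 3.11) had at least 10 UMIs, against 3 vehicle cells (0.0785%) and 6 p38i cells (0.125%). Of the 99, 72 lay outside the gates, 11 in the macrophage class, 10 in the NK cell class, 3 among neutrophils and 3 among T cells. Mcpt2, mast cell protease 2, was at 0 UMIs in vehicle NK cells and at 1795 CPM in p38KO NK cells, at least 430-fold higher against a floor of 3 counts. Once those cells were left out, the summed level of the 7 genes in p38KO was 69.0 CPM in place of 5297 CPM in the NK cell class and 24.8 CPM in place of 715 CPM in the macrophage class. What remained in p38KO, between 24.8 and 103 CPM over the 6 classes, was above the vehicle level in each class. The Mcpt and tryptase genes are similar copies that can share reads.

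**Figure D2:**
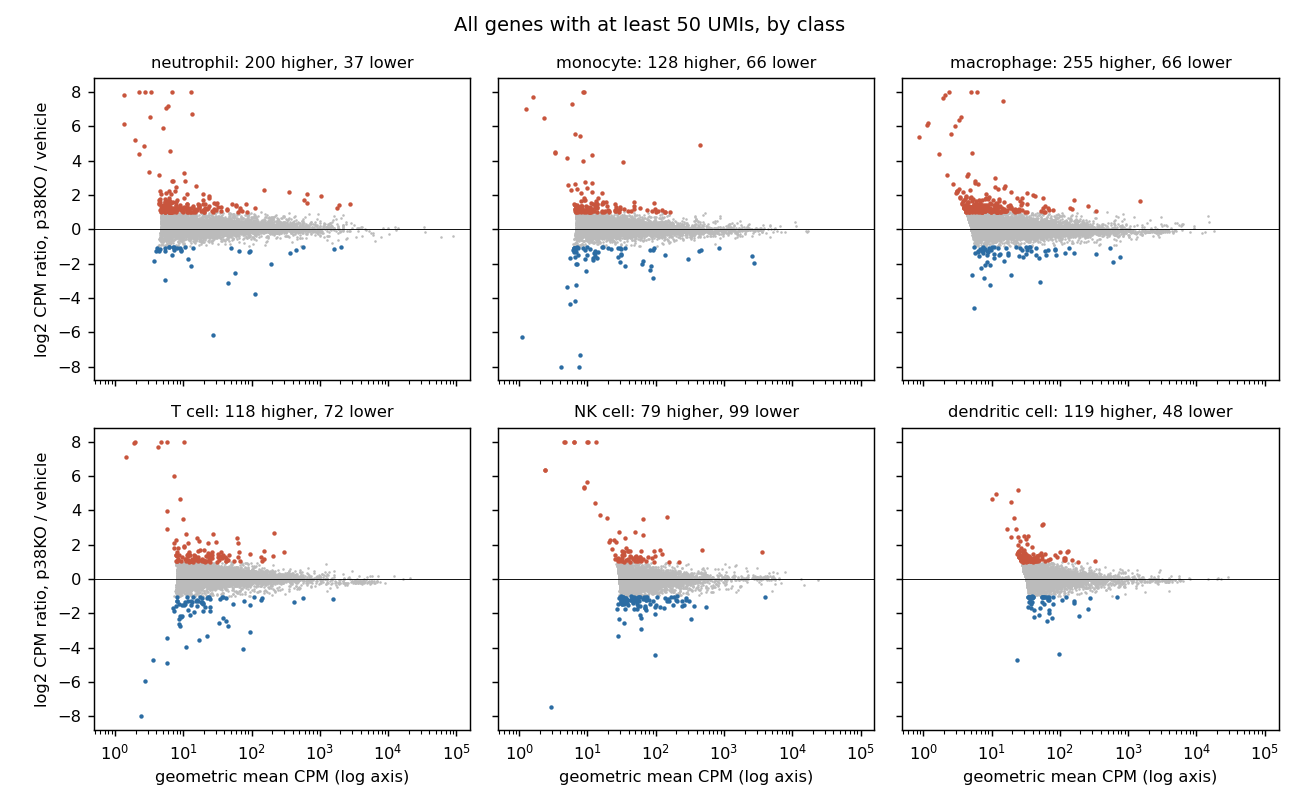
Log2 CPM ratio of p38KO to vehicle against the geometric mean CPM (log axis) for every gene with at least 50 UMIs, 1 panel per class. Red points are genes called higher, blue points genes called lower and grey points genes not called. Ratios beyond 8 are drawn at 8 and CPM below 0.1 at 0.1. Most points lie within 1 log2 unit of 0, and the points at the upper edge include mast cell genes and Krt14.

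In p38KO neutrophils, several chemokine and cytokine genes were higher, and Retnlg, Ly6g and 3 of 15 granule genes were lower. Of all neutrophil genes 0.529% were lower. Of the chemokines that attract monocytes and T cells, 5 of 15 with enough UMIs were higher and none was lower, with a median log2 ratio of 0.63 beside 0.12 over all genes. Cxcl10, an interferon-induced ligand of CXCR3 on T cells, was at 381 CPM in vehicle, 225 CPM in p38i and 1093 CPM in p38KO (log2 ratio 1.52, 95% interval 1.45 to 1.59). Its UMIs were spread over 188 vehicle and 293 p38KO cells. Cxcl9, its neighbour in the genome and another CXCR3 ligand, was at 36.0, 39.1 and 97.9 CPM in the same order (log2 ratio 1.44), in 64 vehicle and 59 p38KO cells. Cxcl9 was not among the higher genes listed as carried by many neutrophils, so its p38KO level may rest on few of those cells. Il1a, which encodes the alarm cytokine IL-1a, stood at 50.8, 46.3 and 139 CPM. Tnf, a main inflammatory cytokine, was at 22.4, 22.8 and 56.5 CPM. Both were alike in vehicle and p38i and above 2-fold only in p38KO. Among TNF and NF-kB feedback genes, 4 of 22 were higher (Tnf, Traf1, Icam1 and Cd83) and none was lower. The median of this list was 0.47 beside 0.12 over all neutrophil genes, of which 2.86% were higher. Icam1, the adhesion molecule that binds leukocyte integrins, was at 73.5, 74.6 and 176 CPM in 231 vehicle and 346 p38KO cells. Bcl2a1a, a survival factor of the Bcl2 family with near-identical copies that share reads, was at 36.7, 32.1 and 93.4 CPM.

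Type I interferon response genes gave no call in neutrophils, although the median of 33 members was 0.61 beside 0.12 over all genes. Macrophage transcripts were also higher in p38KO than in vehicle in this class. C1qc, a complement subunit made by macrophages, was at 18.0, 8.20 and 51.3 CPM in the neutrophil class. The summed level of 10 macrophage markers there was 616, 899 and 915 CPM. In p38i the marker sum was thus near that of p38KO, whereas C1qc was lowest. The part of these transcripts in the neutrophil values was not tested. Of 13 mitochondrially encoded genes, 12 were called higher in neutrophils and the other, mt-Co1, stood at a log2 ratio of 0.65, with a median of 1.45. Cells with a high mitochondrial share moved with this count. A limit of 10% in place of 20% removed 4 vehicle and 62 p38KO neutrophils, and 9 of the 13 genes were then called higher, with a median of 1.13. mt-Nd1, a subunit of complex I, was at 315, 400 and 1295 CPM. The median share of mitochondrial UMIs per neutrophil was 0.321%, 0.394% and 0.543%.

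Several genes of neutrophil products were lower. Retnlg, a resistin-like secreted protein, was at 2442, 4151 and 1097 CPM (log2 ratio -1.15, -1.20 to -1.11). Prok2, a chemoattractant prokineticin, was at 675, 912 and 296 CPM. Ly6g, the surface protein used to identify mouse neutrophils, was at 101, 81.6 and 42.0 CPM, and Ifitm6, a membrane protein of the interferon-induced family, at 587, 703 and 229 CPM. For these genes p38KO stood below both other libraries. Saa3, an acute-phase protein, was at 382, 1279 and 95.5 CPM. The heat-shock chaperone Hspa1a was at 140, 36.8 and 23.8 CPM, with 205 of its 855 vehicle UMIs in 1 cell.

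The lowest ratios in the class were those of secondary granule genes. Camp (cathelicidin, chromosome 9), Ngp (neutrophilic granule protein) and Ltf (lactotransferrin) were at 232, 407 and 134 CPM in vehicle, at 517, 735 and 173 CPM in p38i and at 3.25, 30.3 and 15.2 CPM in p38KO neutrophils. Their UMIs came from few, large cells. At least 10 UMIs of the 3 genes together were found in 13 of 2030 vehicle neutrophils (0.640%, 0.341 to 1.09), 38 of 2444 p38i neutrophils (1.55%, 1.10 to 2.13) and 3 of 1765 p38KO neutrophils (0.170%, 0.0351 to 0.496). Those 13 vehicle cells had 5045 to 24695 UMIs each and held 4544 of the 4723 granule UMIs. Without the 5% of cells with most UMIs, Ltf had a log2 ratio of 0.035, and 1 of the granule genes was called lower in place of 3. Mmp8, the neutrophil collagenase of the tertiary and secondary granules, was at 213, 249 and 113 CPM and was not called.

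Monocytes of p38KO tumors had lower levels of several secreted factors and of 3 of 20 immediate-early genes (Fos, Dusp1 and Nr4a2). None of the 20 was higher, and their median log2 ratio was -0.36 beside 0.06 over all genes, of which 0.821% were lower. The list did not fall in every class. In neutrophils 3 of 22 were higher (Egr2, Egr3 and Nr4a3) and 1, Fosl1, was lower, with a median of 0.25. Of all neutrophil genes 2.86% were higher and 0.529% lower. In dendritic cells 3 of 14 were lower and 1, Nr4a3, was higher, beside 1.14% lower and 2.82% higher of all genes. In monocytes the values of single genes were as follows. Dusp1, the phosphatase of p38 and JNK, was at 546 CPM in vehicle, 170 CPM in p38i and 165 CPM in p38KO (log2 ratio -1.73, -1.87 to -1.59), with UMIs in 324 vehicle and 185 p38KO cells. Fos, a subunit of the AP-1 transcription factor, was at 666, 275 and 274 CPM, and Rgs1, a regulator of chemokine receptor signalling, at 230, 82.1 and 81.2 CPM. Cxcl2, a neutrophil attractant that binds CXCR2, was at 1237, 567 and 596 CPM. Thbs1 (thrombospondin-1) was at 700, 363 and 301 CPM. In these 5 genes p38i and p38KO lay close together and vehicle stood apart. Vcan, a matrix proteoglycan of classical monocytes, was at 138, 149 and 59.1 CPM, so that only p38KO was low.

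Neutrophil transcripts in the monocyte class were lower in the p38KO library as well. S100a8 and S100a9, the calprotectin subunits, were at 4463 and 5431 CPM in vehicle, at 4172 and 4496 CPM in p38i and at 1511 and 1381 CPM in p38KO. A single vehicle cell held 5029 of the 18751 S100a8 UMIs. Of 20 granule genes, 14 had enough UMIs and 4 were called lower (Camp, Ngp, Ltf and Wfdc21), beside 0.821% of all monocyte genes. Wfdc21, an antiproteinase, was at 187, 167 and 35.8 CPM and Retnlg at 243, 145 and 34.5 CPM. Camp was at 170 CPM in vehicle, all of it in 4 cells, and at 0 UMIs in p38KO, at least 182-fold lower against a floor of 3 counts. The summed level of 10 neutrophil markers in the class was 10727, 9374 and 3279 CPM, and their part in these calls was not tested.

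On the other side, 4 of 35 type I interferon response genes were higher in p38KO monocytes and none was lower. Their median was 0.46 beside 0.06 over all monocyte genes, of which 1.59% were higher. Ifit3, an antiviral protein that binds viral RNA complexes, was at 60.9, 28.4 and 130 CPM in 56 vehicle and 108 p38KO cells. Cmpk2, a mitochondrial nucleotide kinase, was at 38.6, 38.5 and 91.7 CPM. Timp1, an inhibitor of matrix metalloproteinases, was at 55.5, 87.3 and 161 CPM, and at least 0.5 of its p38KO UMIs lay in fewer than 10 cells. Ccl8, a chemokine, was at 8.57, 4.10 and 131 CPM, and 181 of its 421 p38KO UMIs came from 1 cell. Siglech, a marker of plasmacytoid dendritic cells, was at 27.6, 48.8 and 85.2 CPM, in 4 vehicle and 9 p38KO cells.

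Macrophages of p38KO tumors had higher levels of type I interferon response genes. Of 34 with enough UMIs, 12 were called higher and none was lower, and their median log2 ratio was 0.79 beside 0.04 over all macrophage genes. Of all macrophage genes 2.79% were higher and 0.721% lower. Irf7, the transcription factor that amplifies interferon production, was at 91.7 CPM in vehicle, 82.7 CPM in p38i and 222 CPM in p38KO (log2 ratio 1.28, 1.08 to 1.47). Its UMIs lay in 70 vehicle and 322 p38KO cells. Ifi44 was at 101, 130 and 230 CPM and Rtp4, a chaperone of membrane receptors that interferon induces, at 43.5, 71.1 and 104 CPM. Rsad2 (viperin), which makes an antiviral nucleotide, was at 54.1, 44.5 and 117 CPM, but 510 of its 841 p38KO UMIs came from 1 cell. Of 32 interferon-gamma response genes none was higher and 1, Cxcl9, was lower, at 1321, 648 and 438 CPM (log2 ratio -1.59, -1.66 to -1.52). Cxcl9 was not among the lower genes listed as carried by many macrophages, so its vehicle level may rest on few cells.

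Promoters of Ifit3, Rsad2, Cxcl10, Fos and Dusp1 are shown because their regulatory sequences are short. Fos and Dusp1 were called lower together in monocytes, macrophages and NK cells. The interferon genes were not called together as a set in any class. Ifit3 and Rsad2 were both called higher in macrophages only, and Cxcl10 was called higher in neutrophils only. Each is the stretch of 250 bases before the start site, from RefSeq on GRCm38.p6, 5′ to 3′ on the gene's own strand. In the interferon genes the capitals mark the core of the interferon-stimulated response element, GAAANNGAA, on either strand.
Ifit3, chr19:34583279-34583528, plus strand: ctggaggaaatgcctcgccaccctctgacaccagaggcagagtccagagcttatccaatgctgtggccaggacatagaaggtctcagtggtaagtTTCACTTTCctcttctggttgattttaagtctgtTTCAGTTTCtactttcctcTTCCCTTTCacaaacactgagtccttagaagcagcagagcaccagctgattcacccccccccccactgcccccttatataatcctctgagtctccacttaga
Rsad2, chr12:26456453-26456702, minus strand: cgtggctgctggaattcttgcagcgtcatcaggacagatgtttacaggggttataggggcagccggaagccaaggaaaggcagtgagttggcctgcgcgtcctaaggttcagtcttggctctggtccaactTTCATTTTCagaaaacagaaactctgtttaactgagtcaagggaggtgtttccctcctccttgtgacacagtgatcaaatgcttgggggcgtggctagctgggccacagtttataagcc
Cxcl10, chr5:92348890-92349139, minus strand: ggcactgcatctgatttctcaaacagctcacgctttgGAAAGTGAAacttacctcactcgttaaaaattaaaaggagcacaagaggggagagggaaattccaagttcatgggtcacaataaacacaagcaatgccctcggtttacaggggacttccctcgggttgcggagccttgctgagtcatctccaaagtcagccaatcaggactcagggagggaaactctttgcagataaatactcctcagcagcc
In the immediate-early genes the capitals mark the cyclic AMP response element, TGACGTCA, and its shorter form, TGACG, on either strand. The shorter form is part of the full element.
Fos, chr12:85473640-85473889, plus strand: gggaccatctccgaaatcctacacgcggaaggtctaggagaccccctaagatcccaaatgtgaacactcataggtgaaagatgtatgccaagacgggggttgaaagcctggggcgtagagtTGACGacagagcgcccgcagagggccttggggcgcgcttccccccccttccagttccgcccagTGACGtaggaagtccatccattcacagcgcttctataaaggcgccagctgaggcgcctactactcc
Dusp1, chr17:26508473-26508722, minus strand: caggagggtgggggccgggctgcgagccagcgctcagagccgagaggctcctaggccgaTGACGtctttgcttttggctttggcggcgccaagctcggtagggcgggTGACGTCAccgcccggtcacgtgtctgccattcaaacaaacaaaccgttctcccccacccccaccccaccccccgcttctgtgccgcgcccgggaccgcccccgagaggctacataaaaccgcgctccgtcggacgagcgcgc
The Ifit3 stretch held 3 copies of the response element core and the Rsad2 and Cxcl10 stretches 1 each. Of 36 type I interferon response genes in the count files, 28 had a promoter in the table and 16 of these held the core, beside 8.18% of all 27025 genes in the table. The full cyclic AMP response element was present in Dusp1 and in 1.77% of all genes, and the shorter form in 19.8%. A match is a match of letters and says nothing about binding in these cells.

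Other genes higher in p38KO macrophages were carried by many cells. Ccl8 was at 838, 564 and 2635 CPM (log2 ratio 1.65, 1.59 to 1.72), in 66 vehicle and 351 p38KO macrophages. Tmem119, known as a microglia marker, was at 22.3, 14.7 and 86.2 CPM, Fcrls, an Fc receptor-like protein of resident macrophages, at 30.0, 21.7 and 106 CPM, and Olfml3, a secreted olfactomedin-like protein, at 15.7, 10.9 and 69.5 CPM. Their UMIs lay in 22, 26 and 26 vehicle cells and in 219, 180 and 205 p38KO cells. All 3 were lowest in p38i and highest in p38KO. C4b, a complement component, was at 38, 25.6 and 97.8 CPM, and Cp (ceruloplasmin, a copper-carrying ferroxidase) at 20.1, 24.5 and 80.5 CPM. Tmem176a, an intracellular ion channel protein whose gene overlaps Tmem176b on the other strand, was at 88.8, 112 and 289 CPM. Cell cycle genes had 4 of 36 higher (Ube2c, Cenpf, Plk1 and Kif11) with a median of 0.27. Over all macrophage genes 2.79% were higher and the median was 0.04.

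Matrix proteases and single genes of hypoxia and lipid handling were among those lower in macrophages. Mmp9 (gelatinase B), at 151, 105 and 17.9 CPM, rested on 13 vehicle and 14 p38KO cells. It is also in the neutrophil marker and granule lists. Of these lists Mmp8 and G0s2 were lower in the macrophage class too, whereas Chil3, Hp and Hdc were higher. The summed level of 10 neutrophil markers in the class was 507, 773 and 347 CPM, and the part of neutrophil transcripts in the Mmp9 value was not tested. Mmp13, a collagenase, was at 266, 198 and 101 CPM in 72 vehicle and 107 p38KO cells. Vegfa, the main angiogenic factor, was at 103, 61.0 and 44.0 CPM, and Hilpda, a hypoxia-induced lipid droplet protein, at 197, 143 and 92.5 CPM. With P4ha2 these were 3 of 34 glycolysis and hypoxia genes, none was higher, and the median was -0.41. Over all macrophage genes 0.721% were lower and the median was 0.04. The count of lower hypoxia genes was 1 after gating on thinned cells and 5 with equal weight per cell. Lpl, which hydrolyses triglycerides, was at 48.2, 51.2 and 7.63 CPM, and Cd36, a fatty acid receptor, at 57.4, 35.0 and 24.1 CPM. Their list, lipid-associated and scavenger macrophage genes, was not lower as a whole. Of 27 members 3 were lower (Lpl, Cd36 and Timd4) and 1, Cd163, was higher, with a median of 0.15 beside 0.04 over all genes. Dusp1 was at 85.9, 21 and 27.6 CPM and Fos at 193, 79.5 and 75.6 CPM, again with p38i near p38KO. Cxcl2, at 147, 73.6 and 51.3 CPM, reversed to a log2 ratio of 0.31 when cells were gated after thinning. Ifitm1, an interferon-induced membrane protein that also marks early myeloid stages, was at 1166, 1755 and 313 CPM. Ocstamp, a membrane protein of fusing osteoclasts and macrophages, was at 50.8, 43.1 and 16.6 CPM. Ifitm1, Ocstamp, Cd36 and Cxcl2 were not among the lower genes listed as carried by many macrophages. Their vehicle levels may rest on few cells.

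**Figure D3:**
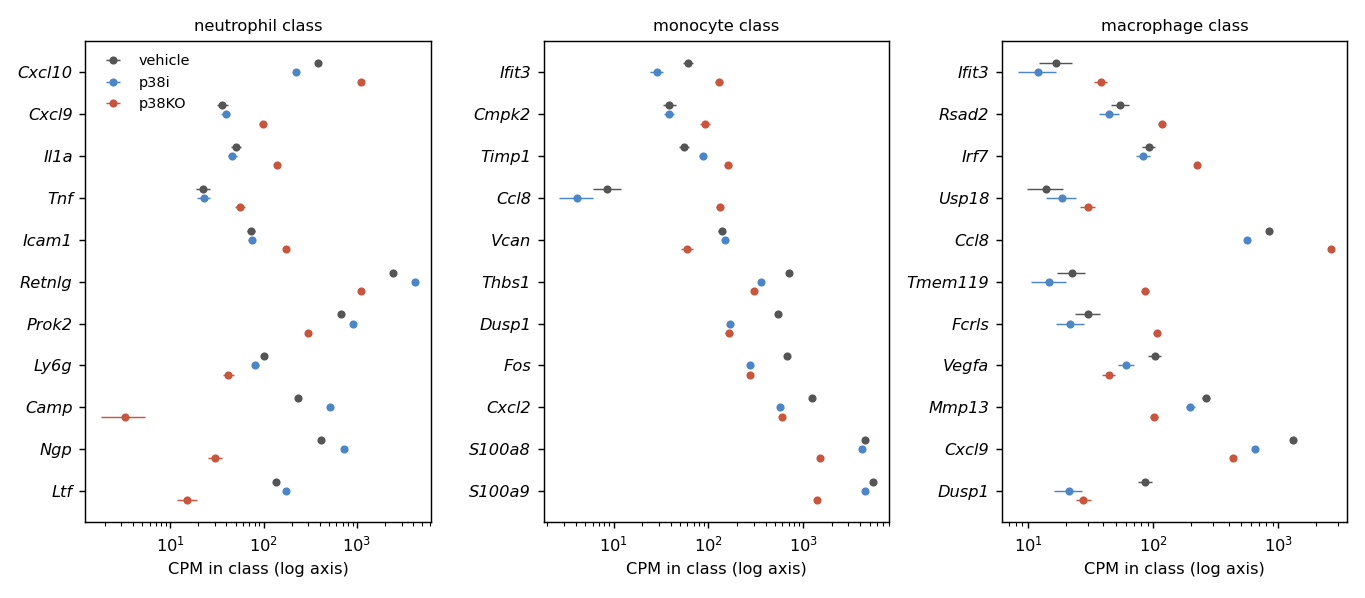
CPM (log axis) of selected genes in the neutrophil, monocyte and macrophage classes of the vehicle, p38i and p38KO libraries. Points are 1 library each and whiskers are exact Poisson 95% intervals. In monocytes Dusp1 stands at 546 CPM in vehicle and at 170 and 165 CPM in p38i and p38KO, whereas in macrophages Irf7 is high in p38KO alone (222 CPM).

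Tsc22d3 and Fos were lower in most classes. Tsc22d3, the glucocorticoid-induced leucine zipper, was called lower in 5 of 6 classes, more than any other gene. It was at 145, 72.3 and 58.9 CPM in neutrophils, at 124, 69.6 and 53.5 CPM in monocytes and at 158, 66.6 and 56.6 CPM in T cells. In NK cells it was at 168, 55.8 and 22.1 CPM and in dendritic cells at 130, 60.2 and 36.7 CPM. Macrophages were the exception, at 56.3, 53.6 and 45 CPM (log2 ratio -0.32, -0.61 to -0.04). Fos was called lower in 4 classes, with log2 ratios of -2.13 in dendritic cells, -1.74 in NK cells, -1.35 in macrophages and -1.28 in monocytes, and stood at -0.29 in neutrophils and -0.62 in T cells. Zfp36l2, which destabilises AU-rich mRNAs, was lower in T cells (661, 248 and 257 CPM) and NK cells (952, 263 and 308 CPM). A list of 22 genes that cell dissociation is known to induce, Fos and Dusp1 among them, had no member called higher in any class. Lower were 2 of 21 in neutrophils (beside 0.529% of all genes), 2 of 21 in monocytes (0.821%) and 3 of 21 in macrophages (0.721%). In T cells 1 of 21 was lower (0.874%), in NK cells 3 of 15 (2.14%) and in dendritic cells 4 of 18 (1.14%). The medians of this list ran from -0.61 in dendritic cells to 0.08 in neutrophils. All libraries were made from tissue digested with cold protease, and the part of handling in these values was not tested.

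**Figure D4:**
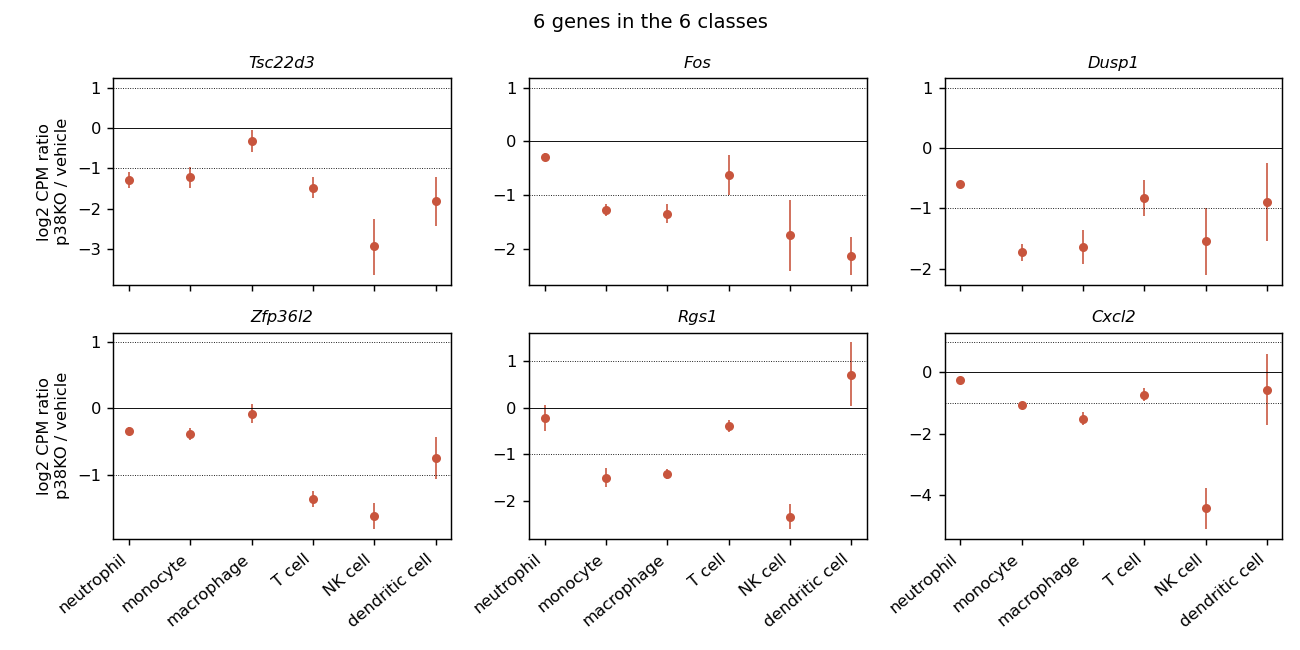
Log2 CPM ratio of p38KO to vehicle for Tsc22d3, Fos, Dusp1, Zfp36l2, Rgs1 and Cxcl2 in the 6 classes, 1 comparison of 1 library with 1 library per point, with exact conditional 95% intervals. Dotted lines mark a 2-fold difference. Tsc22d3 lies below the lower line in every class but macrophages, where it stands at -0.32.

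In the T cell class of p38KO, genes of cytotoxic effectors were lower. Of 19 with enough UMIs, 10 were lower and 1, Gzma, was higher, and the median log2 ratio was -1.07 beside 0.11 over all genes. Of all T cell genes 0.874% were lower and 1.43% higher. Prf1 (perforin), which opens the target cell membrane, was at 275, 229 and 32.7 CPM (log2 ratio -3.07, -3.40 to -2.76), in 176 vehicle and 58 p38KO cells. Gzmb, the protease that perforin delivers, was at 812, 486 and 386 CPM, Serpinb6b, a granzyme inhibitor, at 84.6, 55.9 and 17.6 CPM and Gzmk at 46.6, 38.3 and 13 CPM. Among cytotoxic genes with at least 200 UMIs, the lowest ratios were in Gzmd, Gzme and Gzmf, similar granzyme genes that can share reads. Of the 1037 vehicle UMIs of Gzmf, 874 came from 1 cell. The log2 ratio of Gzmg, with fewer UMIs, was lower still (-8.38). In CD8 cells (T cells with Cd8 but no Cd4 UMIs) its 198 vehicle UMIs came from 1 cell. Those of Gzme and Gzmd came from 5 and 6 vehicle CD8 cells. Klre1, a receptor of NK and some T cells, was at 117, 90.9 and 17.6 CPM. Lag3, an inhibitory receptor of activated T cells, was at 206, 183 and 90.0 CPM. Ccl5, a chemokine of effector cells, was at 2291, 1830 and 1044 CPM. Gzma was at 103, 136 and 230 CPM, with 257 of its 653 p38KO UMIs in 1 cell. Without the 5% of cells with most UMIs, 6 of the cytotoxic genes were called lower.

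T helper genes went the other way, with 8 of 23 higher, none lower and a median of 0.47, although 4 were called after gating on thinned cells. Over all T cell genes 1.43% were higher and the median was 0.11. Cd4 itself was at 96.2, 115 and 203 CPM. Il2, the T cell growth factor, was at 27, 7.32 and 142 CPM, of which 313 of 405 p38KO UMIs came from 1 cell. Il4 and Il13, type 2 cytokines, were at 33.4 and 45 CPM in p38KO and at 2.97 and 15.1 CPM in vehicle, on 19 and 18 p38KO cells. A single p38KO cell held 41 of the 95 UMIs of Il4 and 75 of the 128 of Il13. Il4 is also in the list of mast cell and basophil markers. The mast cell protease genes together were at 2.37, 0.666 and 558 CPM in the T cell class, and 3 of its p38KO cells had at least 10 UMIs of them. Whether UMIs of Il4 or Il13 lay in those cells was not tested. Il13 had a log2 ratio of 1.02 without the top cell of each library, and it was not called after gating on thinned cells (0.66) or in CD4 cells alone (0.58). Ccl1, a ligand of CCR8, was at 83.7, 178 and 536 CPM, with 680 of 1524 p38KO UMIs in 1 cell. Foxp3, which defines regulatory T cells, was at 75.1, 102 and 108 CPM and was not called. Itgae (the CD103 integrin, which holds T cells in epithelium) was at 31.2, 52.9 and 131 CPM in 39 vehicle and 148 p38KO cells. Pmepa1, a TGF-b target, was at 171, 248 and 507 CPM in 258 and 385 cells. Unlike the cytokines, these genes did not rest on single cells. Ly6g5b, a Ly6 family gene, was at 11, 13 and 68.9 CPM.

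The makeup of the class moved with these values. T cells with Cd8a or Cd8b1 UMIs and none of Cd4 were 268 of 539 in vehicle (49.7%, 45.4 to 54.0) and 151 of 519 in p38KO (29.1%, 25.2 to 33.2). T cells with Cd4 UMIs alone were 147 (27.3%, 23.6 to 31.2) and 195 (37.6%, 33.4 to 41.9). T cells with neither Cd4 nor Cd8 UMIs, which could not be assigned, were 116 (21.5%, 18.1 to 25.2) and 163 (31.4%, 27.4 to 35.6). In p38i the shares were 38.3%, 26.2% and 33.9% in the same order. Within the CD8 cells Prf1 was still at 442, 438 and 79.7 CPM (log2 ratio -2.47, -2.83 to -2.13), Lag3 at 279, 266 and 49.9 CPM, and Itgae at 12.8, 18.2 and 184 CPM. In CD8 cells Gzmb was at 977, 520 and 550 CPM (log2 ratio -0.83) and Ccl5 at 3540, 3314 and 2387 CPM, and neither was called. Within the CD4 cells Itgae was at 56.6, 62.1 and 89.8 CPM and was not called, nor was Pmepa1 (log2 ratio 0.82, against 2.23 in CD8 cells). Lag3 and Ccl5 had log2 ratios of 0.29 and 0.14 in CD4 cells, and Zfp36l2 was at 790, 315 and 216 CPM.

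NK cells of p38KO tumors differed in other members of the same families. Gzmc was at 2103, 2716 and 6183 CPM, with 2211 of 6161 p38KO UMIs in 1 cell, and Ifng, the interferon that activates macrophages, at 37.6, 28.6 and 93.3 CPM. Cxcr6, a receptor of tissue-resident lymphocytes, was at 59.9, 38.7 and 155 CPM in 13 vehicle and 38 p38KO cells, and Itga1, a collagen-binding integrin, at 111, 137 and 225 CPM. Gzma, Gzmb and Prf1, the main lytic genes of NK cells, had log2 ratios of -0.68, -0.78 and -0.59 and were not called. Gzme was at 87.7 CPM in vehicle and 348 CPM in p38i, with no UMI in p38KO, at least 29.1-fold lower. Ccl5 was at 5817, 4634 and 2778 CPM. S100a8, a neutrophil transcript, was also lower in the class, at 199, 122 and 65.2 CPM.

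Hypoxia genes were lower in NK cells too, 5 of 22 with a median of -0.53 (Pfkp, Slc16a3, Ero1l, Hilpda and Hif1a), and 1 was called lower without the 5% of cells with most UMIs. Over all NK cell genes 2.14% were lower and the median was -0.03. The list median was also below that of all genes in neutrophils (-0.19), monocytes (-0.19), T cells (-0.30) and dendritic cells (-0.25). No member was called in neutrophils, monocytes or T cells, and 1, Ero1l, was lower in dendritic cells. In NK cells Pfkp, a phosphofructokinase of glycolysis, was at 202, 166 and 92.3 CPM and Hif1a, the oxygen-regulated transcription factor, at 152, 95.9 and 73.3 CPM. Immediate-early genes had 4 of 14 lower, Fos, Fosl2, Btg2 and Dusp1, with a median of -0.60 beside -0.03 over all genes. Btg2, an antiproliferative gene, was at 484, 145 and 197 CPM, Rgs1 at 746, 130 and 148 CPM and Mxd1, an antagonist of Myc, at 238, 75.9 and 73.3 CPM. These followed the pattern of the monocytes, with vehicle apart from both other libraries. Cxcl2 was at 452, 24.3 and 21.1 CPM, but 219 of its 325 vehicle UMIs came from 1 cell.

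Dendritic cells gave the least certain values, since only 37 cells were gated in vehicle. Of 15 maturation genes with enough UMIs, 8 were higher in p38KO and none was lower, with a median of 1.02 beside 0.02 over all genes. Of all dendritic cell genes 2.82% were higher. Ccr7, which guides mature dendritic cells to lymph nodes, was at 18.5, 120 and 163 CPM, in 3 vehicle and 8 p38KO cells. Ccl22 and Ccl17, ligands of CCR4, were at 4.11 CPM each in vehicle, at 195 and 128 CPM in p38i and at 91.8 and 148 CPM in p38KO, on 9 and 10 p38KO cells. When cells were gated after thinning, which left 12 vehicle and 28 p38KO dendritic cells, none of the list was called higher. Cd209a, a lectin of monocyte-related dendritic cells, was at 76.1, 234 and 177 CPM and Tbc1d4, a Rab GTPase regulator, at 74.0, 166 and 232 CPM. Dnase1l3, a secreted DNase, was at 78.1, 111 and 181 CPM and the noncoding or short-peptide gene AW112010 at 74.0, 259 and 225 CPM. In these 4 genes vehicle was the lowest library. Ccl5 was at 57.6, 401 and 174 CPM, with 107 of its 189 p38KO UMIs in 1 cell. Ccl4, an inflammatory chemokine, was lower (442, 36.7 and 21.1 CPM), as were Fos (399, 78.6 and 90.9 CPM), Hspa1a (167, 56.3 and 34.9 CPM) and Gpr171 (251, 139 and 106 CPM). Cldnd1, a claudin-domain protein, was at 267, 86.4 and 100 CPM, and Igkc at 481, 160 and 142 CPM. Only Arsb and Efhd2, both called higher, were listed as carried by many cells in this class. Cd209a, Tbc1d4, Dnase1l3, AW112010, Ccl4, Fos, Hspa1a, Gpr171, Cldnd1 and Igkc were not, so their levels may rest on few cells.

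**Figure D5:**
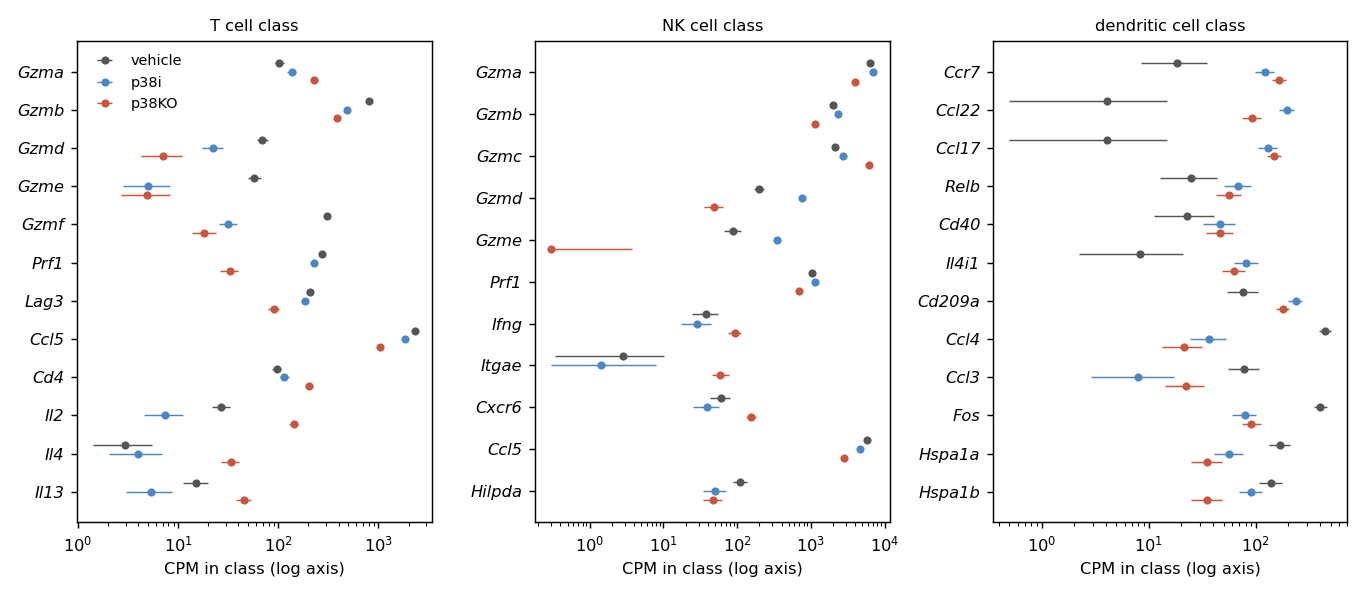
CPM (log axis) of selected genes in the T cell, NK cell and dendritic cell classes in vehicle, p38i and p38KO, 1 library per point, with exact Poisson 95% intervals as whiskers. Levels below 0.3 CPM are drawn at 0.3. In T cells Prf1 stands at 275 and 229 CPM in vehicle and p38i and at 32.7 CPM in p38KO, and in dendritic cells Ccr7 is at 18.5, 120 and 163 CPM.

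Several lists gave few or no calls. Of MHC class I and immunoproteasome genes, at most 1 was called in any class, and medians lay between -0.03 and 0.32. Of MHC class II genes, 3 of 6 were called higher in the NK cell class (H2-Aa, H2-Ab1 and Cd74), beside 1.71% of all genes. None was called in the other classes as a whole, and 52 of the 98 p38KO UMIs of H2-Aa in NK cells came from 1 cell. Transcripts of antigen-presenting cells moved with these in the NK cell class. The summed level of 10 macrophage markers there was 75.2 CPM in vehicle, 57.3 CPM in p38i and 241 CPM in p38KO, and that of 10 dendritic cell markers 6.96, 25.8 and 72.3 CPM, and their part in the MHC class II values was not tested. Within the T cell class the subsets went opposite ways. Cd74, the invariant chain, was at 618, 118 and 90.7 CPM in CD4 cells and at 35.8, 28.4 and 107 CPM in CD8 cells. H2-Aa and H2-Eb1 were called lower in CD4 cells (log2 ratios of -2.72 and -2.46) and higher in CD8 cells (1.66 and 2.16), and this difference was not tested. In CD8 cells the macrophage transcripts Apoe and C1qa were called higher too (1.58 and 1.76). A single cell held 31 of the 101 p38KO UMIs of Cd74 there. In CD4 cells Apoe and C1qa did not fall with the MHC class II genes (1.67 and 0.52). The part of macrophage transcripts in the T cell values was not tested. Genes of the p38 pathway had 0 to 2 calls per class, which in some classes was above the share of all genes. In NK cells 2 of 12 were lower (Zfp36l1 and Zfp36l2), beside 2.14% of all genes. In T cells 1 of 19 was lower (Zfp36l2), beside 0.874%. In monocytes 2 of 20 were higher (Rps6ka5, which encodes the MSK1 kinase, and Tab1), beside 1.59%. In macrophages 2 of 19 were higher (Map3k5 and Rps6ka5), beside 2.79%. The medians of the list lay between -0.29 in NK cells and 0.30 in T cells. ATF4 and unfolded protein response genes had at most 1 call in a class.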

How the data were processed

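Single-cell RNA libraries (10x Genomics) of sorted CD45+ cells were analysed, 1 per group, each pooled from 3 tumors. The authors deposited matrices of raw UMI counts per gene and barcode, made with Cell Ranger (version 6.0.0 in the header) on mm10 per the submitters' notes, without normalization. The filter on cells was 1500 UMIs or more, 300 genes or more and mitochondrial counts of 20% or less. Gates used raw UMIs: C1qa of at least 3 for macrophages; Cd3e, Ncr1 or Flt3 of at least 1 for T, NK and dendritic cells; Csf3r plus Cxcr2 of at least 1 for neutrophils; Ly6c2 plus Fn1 of at least 2 for monocytes, with limits on the other gate genes. No doublet caller was run. Counts were summed per class and given as CPM with exact Poisson 95% intervals, and log2 ratios carry exact conditional binomial 95% intervals, with 0.5 in place of 0. Shares carry Clopper-Pearson intervals. All intervals cover counting error only. Calls needed 50 UMIs over both libraries and a 2-fold difference. Named genes were the 5 of largest ratio per class and direction with at least 200 UMIs and 50 CPM, genes called in 5 classes, and members of 38 gene lists and 12 marker lists; many-cell genes and single-cell counts were named after their values were seen. The comparison, members and lists were chosen with earlier results of these data known. A symbol shared by several gene IDs was given to the ID with most counts. Of the list members, 7 matched no gene symbol and were not analysed here. Near-identical genes, such as Hspa1a and Hspa1b or the granzyme and Mcpt families, can share reads and are uncertain. Promoters came from RefSeq and positions from GENCODE M21 (GRCm38). Python 3.11.15, numpy 2.4.6, scipy 1.17.1, pandas 2.3.3 and matplotlib 3.10.9 were used, and the counting steps were tested on simulated data. The alternatives tried were other cell filters, gates, scalings and count minimums, single T cell subsets, and, chosen after seeing the data, leaving out mast transcript cells or each gene's top cell. Some items are not reported here.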

Additional observations from a re-analysis of the deposited data

Results flagged for a closer look

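Genes called in opposite directions in 2 classes are listed with their log2 ratios of p38KO to vehicle. Each had at least 200 UMIs over both libraries in each class and was still past 2-fold without the top cell of each library. That removal lowers both sides, so it does not show that a ratio holds without the top p38KO cell alone. The difference between classes was not tested. Cxcl9 was higher in neutrophils (1.44) and lower in macrophages (-1.59). In neither class was Cxcl9 listed as carried by many cells, so both ratios may rest on few cells. Ccl5 was higher in monocytes (1.03) and dendritic cells (1.59) and lower in T cells (-1.13, and 0.14 in CD4 cells alone) and NK cells (-1.07). In dendritic cells most of its p38KO UMIs came from a single cell. Ifitm1 was lower in macrophages (-1.90) and higher in NK cells (1.68), and the same limit holds for Ifitm1 in both of these classes. Saa3 was lower in neutrophils (-2.00) and monocytes (-2.04) and higher in macrophages (1.11), where gating on thinned cells turned its direction, as it did for Ccl5 in monocytes. Havcr2, which encodes the receptor TIM-3, was higher in neutrophils (1.72) and lower in T cells (-1.04), although within the T cells it was lower in CD8 cells (-1.67) and higher in CD4 cells (1.63). Il1r2, the decoy receptor of IL-1, was lower in monocytes (-1.09) and higher in T cells (1.29). Txnip, a glucose-responsive inhibitor of thioredoxin, was higher in monocytes (1.07) and lower in NK cells (-1.04).

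Cells outside the gates entered no comparison of classes. Of the kept p38KO cells, 1.87% (1.46 to 2.34) lay outside the gates with at least 10 UMIs of mast cell genes, against 0.0785% (0.0162 to 0.229) of the vehicle cells.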

How the results depend on the processing

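No paired analysis was possible because each group is 1 library and no result comes from a test. Of the alternatives run, 20 of 24 values of class shares, 75 of 84 list counts and 105 of 138 class counts stayed within the limits set for a like value, as did 1819 values of single genes, while 280 moved and 11 turned direction. Of the 1819, 189 at each alternative count minimum were the same by construction, because a count minimum does not change a gene's ratio. With a minimum of 200 UMIs in place of 50, the genes higher and lower numbered 55 and 14 in neutrophils, 27 and 27 in monocytes, 59 and 28 in macrophages, 32 and 21 in T cells, 16 and 23 in NK cells and 10 and 7 in dendritic cells. With a minimum of 20 they numbered 483 and 107, 416 and 111, 521 and 139, 295 and 180, 299 and 267, and 468 and 161, in the same order. Those settings test fewer or more genes by construction; the cause of the other moves was not tested. Median-ratio scaling gave 59 genes lower in neutrophils. Equal weight per cell gave 398 higher and 133 lower in macrophages, 129 higher in NK cells, and 5 hypoxia genes lower in macrophages and 3 in NK cells. Without the 5% of cells with most UMIs, 80 genes were higher in monocytes, 1 granule gene was lower in neutrophils, 6 cytotoxic genes were lower and 5 T helper genes higher in T cells, and 1 hypoxia gene was lower in NK cells. There Ltf in neutrophils turned to 0.035 and Igkc in monocytes to -1.60 on the log2 scale. Leaving out each gene's top cell gave 198 genes higher in dendritic cells and -1.0 for Igkc in monocytes. Stricter gates gave 96 genes lower in dendritic cells. Gating on thinned cells changed the share differences to 0.716 points in monocytes, 9.68 in macrophages and 0.411 in dendritic cells, and without a cell filter that of macrophages was 6.56. It also left 1 hypoxia gene lower in macrophages, 4 T helper genes higher in T cells and 0 maturation genes higher in dendritic cells, and gave log2 ratios of -0.34 for Ccl5 in monocytes, 0.31 for Cxcl2 and -0.28 for Saa3 in macrophages and -2.03 for Apoe in dendritic cells. In CD8 T cells 149 genes were lower and Penk turned to -3.12; in CD4 T cells 46 were lower and Lag3, Havcr2 and Ccl5 turned to 0.29, 1.63 and 0.14. With 37 vehicle dendritic cells and 1 library per group, neither the spread between mice nor between libraries can be estimated.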
